A study of Homo sapiens with 12 samples.

Results

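The genes described here encode the machinery that acidifies lysosomes, digests protein inside them and delivers cytoplasm to them. The rule that picks them reads the symbol only, and takes the subunits of the vacuolar ATPase (ATP6V1 and ATP6V0), the cathepsins (CTS and 1 letter), the numbered autophagy genes (ATG), and LAMP1, LAMP2, TFEB, TFE3, ULK1, BECN1, MAP1LC3B, GABARAP, GABARAPL1 and GABARAPL2. Pseudogene and antisense symbols were left out, and 65 of the 27249 genes listed under Ensembl identifiers met the rule. They fall into 13 V1 subunits, 9 V0 subunits, 15 cathepsins, 18 ATG genes, 4 members of the ATG8 family and 6 others. RNA of 12 samples was measured, from Huh7 and HepG2, which are human liver cancer cell lines that the labels give as genotype WT. In each line, 3 samples came from untreated, sorafenib-sensitive cells, called parental here, and 3 from sorafenib-resistant cells. Sorafenib is a multikinase inhibitor used against liver cancer, and resistant cells had been selected with a first exposure at 10 μmol that was raised stepwise for 8 months. The labels name a resistant population for each line, and say neither whether the drug was present at harvest nor whether replicates were separate cultures, so the p-values measure the spread between these samples, which may be technical. The question that the study put to these cells was which genes differ between resistant and parental cells.

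The vacuolar ATPase is a rotary proton pump: its cytosolic V1 sector hydrolyses ATP, and its membrane-bound V0 sector carries protons into the lysosome. The acidity activates the cathepsins, most of which are lysosomal cysteine or aspartic proteases. In autophagy, ULK1 and BECN1 complexes and the ATG proteins build a double membrane around cytoplasm, the lipid-bound ATG8 proteins mark that membrane and capture cargo, and the vesicle then fuses with a lysosome. TFEB and TFE3 are transcription factors that bind an E-box element, called CLEAR, upstream of many lysosomal genes, and in liver cells autophagy turns over proteins, lipid droplets and mitochondria.

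Promoter windows of 300 bases, from 250 before to 50 after the start annotated by RefSeq on GRCh38.p14, were matched by symbol for 51 of the 65 genes. The E-box letters CACGTG, which read the same on both strands, stood in 10 of these 51 windows (19.6%), and in 7.43% of the windows of 27305 genes. The CLEAR core TCACGTGA, which contains that E-box and also reads the same on both strands, stood in 5 of the 51 (9.8%) and in 1.04% of all windows. The 5 genes were ATG3, ATP6V0D1, ATP6V1G1, CTSA and LAMP1. The bases before the start are printed 5′ to 3′ for the 4 of them in which a CLEAR core lies wholly upstream, since TFE3 RNA is among the values that follow. The capitals mark the core, and a match is a description of letters, not a shown binding site.
CTSA, chr20:45891085-45891334, plus strand, core starting 26 bases before the start: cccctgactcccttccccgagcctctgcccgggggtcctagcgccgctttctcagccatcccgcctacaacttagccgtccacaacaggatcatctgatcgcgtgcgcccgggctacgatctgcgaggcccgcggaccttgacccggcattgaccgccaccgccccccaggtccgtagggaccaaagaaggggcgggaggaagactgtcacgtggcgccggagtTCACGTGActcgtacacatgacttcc
ATP6V0D1, chr16:67481158-67481407, minus strand, core starting 60 bases before the start: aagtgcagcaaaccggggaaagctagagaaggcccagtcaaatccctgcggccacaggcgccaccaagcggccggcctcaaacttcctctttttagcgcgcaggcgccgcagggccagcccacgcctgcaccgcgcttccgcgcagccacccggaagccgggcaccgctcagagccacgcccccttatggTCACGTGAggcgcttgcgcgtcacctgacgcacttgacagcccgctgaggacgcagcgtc
LAMP1, chr13:113296989-113297238, plus strand, core starting 29 bases before the start: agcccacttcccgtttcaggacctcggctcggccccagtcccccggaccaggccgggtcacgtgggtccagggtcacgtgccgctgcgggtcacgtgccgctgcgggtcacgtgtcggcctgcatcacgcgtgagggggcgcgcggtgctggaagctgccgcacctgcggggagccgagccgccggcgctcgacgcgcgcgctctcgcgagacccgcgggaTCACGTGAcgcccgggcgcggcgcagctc
ATP6V1G1, chr9:114587519-114587768, plus strand, core starting 59 bases before the start: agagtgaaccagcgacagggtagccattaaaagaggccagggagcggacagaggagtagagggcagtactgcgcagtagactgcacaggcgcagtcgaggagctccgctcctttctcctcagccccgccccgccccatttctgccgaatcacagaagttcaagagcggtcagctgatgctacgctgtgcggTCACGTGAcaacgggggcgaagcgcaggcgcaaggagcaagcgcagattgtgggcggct
The LAMP1 window held 6 E-boxes, the most of the 51, and a second core that crosses the start.

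The deposited values are decimals with no stated unit, and they are treated here as FPKM, that is, as sequenced fragments scaled to the length of a gene and to the size of its library. The reads behind a sample, calculated back from the smallest steps of the values, number from 12290279 to 19286104, and samples of a group correlated at 0.9643 to 0.9856 over genes. Log2 fold changes are given as resistant against parental on the scale log2(FPKM + 1), which understates the change of low genes, with the standard error of the limma fit and p-values adjusted over all tested genes by the Benjamini-Hochberg method. A gene is said to have risen or fallen where the adjusted p was under 0.05. A gene was tested in a line when at least 3 of its 6 samples reached 1 FPKM. Of the markers of hepatocytes, albumin (ALB) had a group mean of 695 to 1615 FPKM and AFP of 366 to 5332 FPKM, and both fell in resistant cells of each line. Of the whole list of 8, 2 rose (APOA1 by 0.97 and HNF4A by 0.77) and 3 fell in Huh7, and 0 rose and 3 fell in HepG2. Of the 16 markers of fibroblasts, endothelium and leukocytes, CD68, CDH5, KDR and DCN had group means of at most 0.0503 FPKM, and the highest were LYZ, at 4.93 and 5.32 FPKM in HepG2, PDGFRB, at 2.07 to 3.58 FPKM, and PECAM1, at 1.34 to 3.13 FPKM. PECAM1 rose by 0.31 in Huh7 and fell by 0.81 in HepG2, CD14 rose by 0.79 in Huh7, and PDGFRB fell by 0.56 in HepG2. With the GC trend of each library removed, as described below, several of these Huh7 calls were lost. They were those of ALB (-0.0041, adjusted p = 0.98), APOA1 (0.40, adjusted p = 0.105), APOB (-0.24, adjusted p = 0.236), CD14 (0.18, adjusted p = 0.345) and PECAM1 (0.05, adjusted p = 0.602). AFP (-0.54, adjusted p = 0.0162) and HNF4A (0.30, adjusted p = 0.0136) kept theirs. The part of other cells in the changes below was not tested.

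The highest mean level of the set belonged to ATP6V1F, a stalk subunit of V1, with 231, 186 and 212 FPKM in resistant and 154, 159 and 121 FPKM in parental Huh7, and 85.5, 100 and 96.0 FPKM in resistant and 77.3, 95.6 and 69.1 FPKM in parental HepG2. LAMP1, MAP1LC3B and CTSD followed as the highest of the membrane proteins, the ATG8 family and the cathepsins. Among the V0 subunits the highest was ATP6V0A1, at 4.73 to 9.18 FPKM, and among the ATG genes ATG9A, at 11.8 to 77.1 FPKM. The lowest of their groups were ATP6V1B1, ATP6V0D2, CTSG, ATG9B, GABARAP and TFEB. CTSG, the neutrophil cathepsin G, was listed at 0 in all samples but Huh7 parental 2 (0.0432 FPKM) and HepG2 resistant 3 (0.0423 FPKM). In both lines 10 genes stayed under the filter: ATG9B, ATP6V0A4, ATP6V0D2, ATP6V0E1, ATP6V1B1, ATP6V1G2, ATP6V1G3, CTSG, CTSS and CTSW. Several of these are the tissue-restricted forms of a pump subunit or a protease of blood cells, such as CTSW and CTSS. In all, 52 of the 65 were tested in Huh7, where ATP6V0E2, ATP6V1E2 and TFEB were also too low, and 47 in HepG2, where ATG101, ATG5, ATP6V0C, CTSE, CTSF, CTSK, CTSO and CTSV were.

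**Figure D1:**
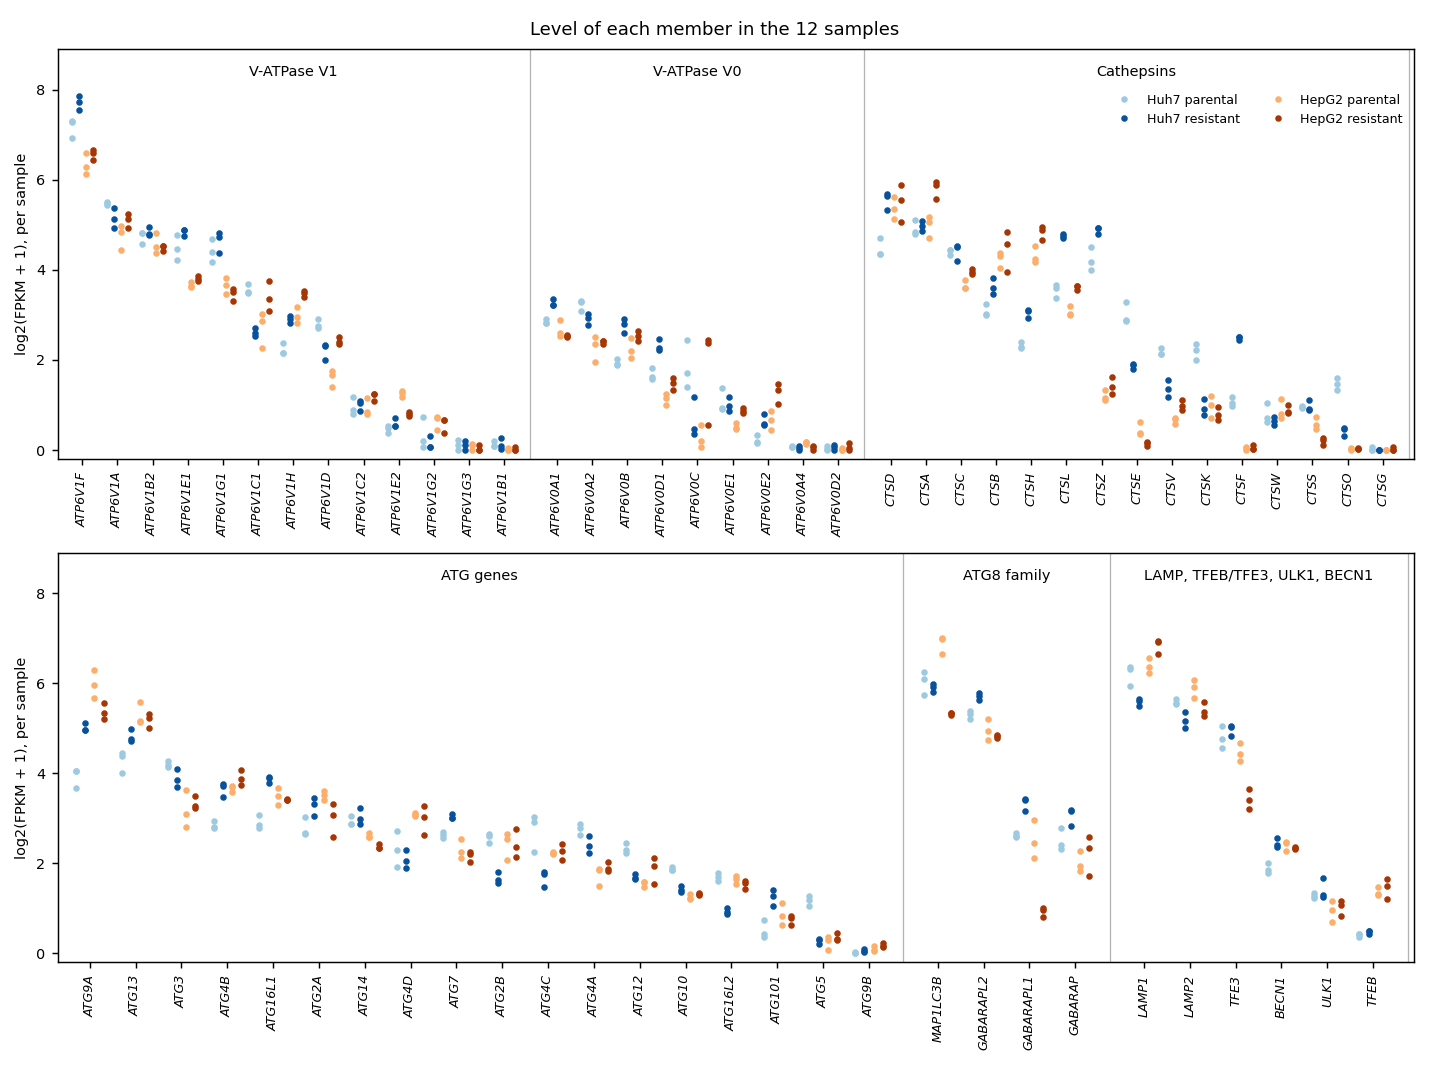
Each point is a sample: log2(FPKM + 1) of the 65 genes, ordered within each role group by their mean level, in parental and resistant Huh7 (light and dark blue) and HepG2 (light and dark orange). ATP6V1F lies highest in both groups of Huh7, LAMP1 in resistant HepG2 and MAP1LC3B in parental HepG2, and CTSZ lies between 14.9 and 29.8 FPKM in Huh7 and between 1.15 and 2.08 FPKM in HepG2.

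In resistant Huh7 cells 22 of the 52 tested genes rose and 19 fell, and 11 did not pass. Among all 12554 tested genes 32.7% rose and 37.4% fell, so the count of members is to be read against a background in which most genes passed. The changes over 2-fold were 4 rises, in CTSF, CTSL, CTSD and ATG9A, and 5 falls, in CTSK, ATP6V0C, CTSE, ATG4C and CTSO, beside 8.59% and 14% of all tested genes. With a pseudocount of 0.1, and likewise with limma-voom, there were 7 rises over 2-fold, with ATG101, ATG16L1 and ATP6V0B added, and 10 falls, with ATG2B, ATG5, ATG16L2, ATP6V1C1 and CTSV added. Of the called genes, ATG5, ATG101 and CTSO passed the filter only through the group in which they were high, so they had to differ and add nothing to the comparison with the background. The median change of the members was 0.11, and that of all tested genes -0.04. With any of the 3 parental samples left out the count of falls over 2-fold went from 5 to 3 (CTSE and CTSK each time, with ATG4C without parental 1 and ATP6V0C without parental 2 or 3). As these are bulk samples, fewer cells with a transcript and less of it per cell cannot be told apart.

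The change in Huh7 moved with base composition. Across all tested genes the Spearman correlation of the fold change with the GC content of the longest transcript was 0.617 in Huh7 and 0.0389 in HepG2, and over the members it was 0.504 and -0.0513. These are descriptions over genes, which share the same 6 libraries. The members that rose in Huh7 had a median GC content of 53.6% and those that fell one of 42.5%. When the GC trend of each library was removed, 22 of the 41 changed members kept their direction and call, 13 kept the direction only, LAMP2 and ATG3 turned from lower to higher and passed, and ATP6V0A1, ATG2A, ATP6V1A and ATG12 turned sign without passing. After that removal no member rose over 2-fold, and the value of a member under it is given below wherever it ends a call or turns a direction. The 22 that held were ATP6V1H, ATP6V1D, ATP6V1C1, ATP6V0B, ATP6V0C, CTSD, CTSE, CTSF, CTSH, CTSK, CTSL, CTSO, CTSV, ATG2B, ATG4B, ATG9A, ATG16L1, ATG16L2, GABARAPL1, GABARAPL2, BECN1 and LAMP1. The removal also brought 8 others past the threshold in Huh7, CTSC (0.71), ATP6V1B2 (0.66) and ATP6V1G1 (0.60) as higher and ATG4D (-0.77), CTSA (-0.54), MAP1LC3B (-0.46), TFE3 (-0.43) and ULK1 (-0.42) as lower. In HepG2 all 10 changed members kept their call, and ATG2A, ATG4D, ATG9A, ATP6V1A, ATP6V1C1, LAMP1 and LAMP2 passed as well. The part of base composition in the Huh7 changes was not tested further.

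**Figure D2:**
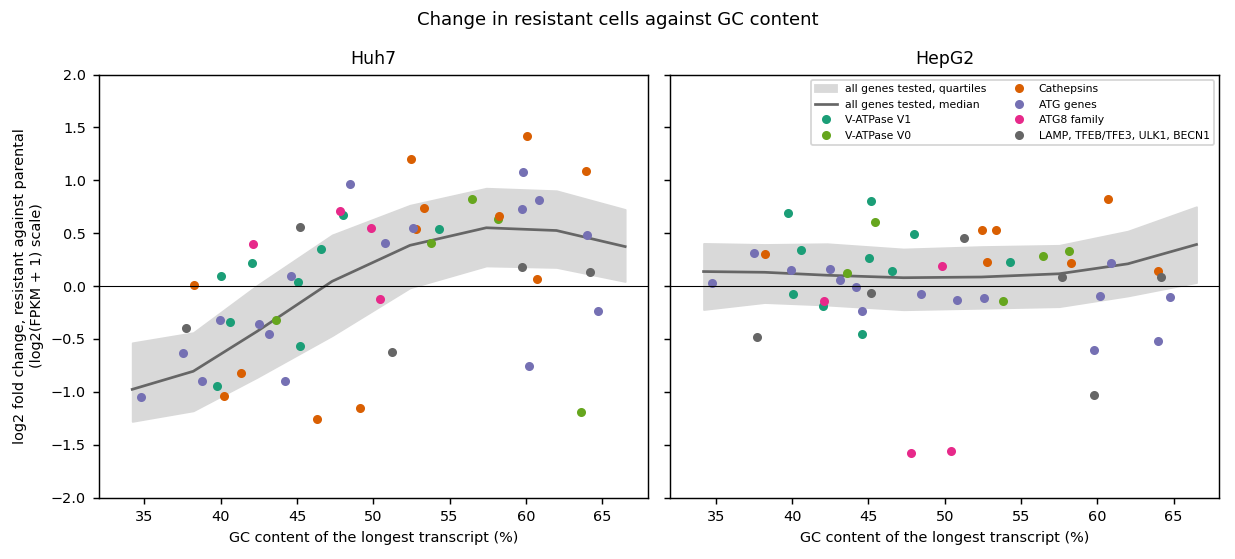
Log2 fold change of resistant against parental cells (log2(FPKM + 1) scale) against the GC content of the longest transcript in percent, with tested members as points coloured by role and all tested genes as a median line with quartiles in bins of GC content. In Huh7 the median of all genes goes from -0.977 at the lowest GC bin to 0.551 in the bin of 55 to 60%, and in HepG2 it lies between 0.0787 and 0.21 up to 65% and at 0.393 above.

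In resistant HepG2 cells 6 of the 47 tested genes rose, ATP6V1D, ATP6V1H, ATP6V0E2, CTSA, CTSH and CTSL, and 4 fell, MAP1LC3B, GABARAPL1, TFE3 and ATP6V1E2. Of these 10, GABARAPL1, ATP6V1E2 and ATP6V0E2 passed the filter only through the group in which they were high. They had to differ and add nothing to the comparisons with the background in this paragraph. Of all 11762 tested genes 11.6% rose and 8.43% fell. The falls of MAP1LC3B, GABARAPL1 and TFE3 were over 2-fold, where 2.98% of all genes were, and no member rose over 2-fold, where 3.29% did; at an unadjusted p under 0.05 the count was also 0, while limma-voom on reads calculated back gave 2 such genes, ATP6V1D and ATP6V0E2. The median change was 0.13 for the members and 0.12 for all genes. The count of rises depended on single libraries and on scaling. It was 4 without resistant 1, 2 without resistant 2, 1 (ATP6V1D) without resistant 3, and 2 (ATP6V1D and CTSA) without parental 1 or without parental 3, while the count of falls was 2 without parental 1. With upper-quartile scaling 3 members rose and 6 fell, and with median-ratio scaling 2 rose and 6 fell, the fallen genes then including ATG9A and LAMP2.

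**Figure D3:**
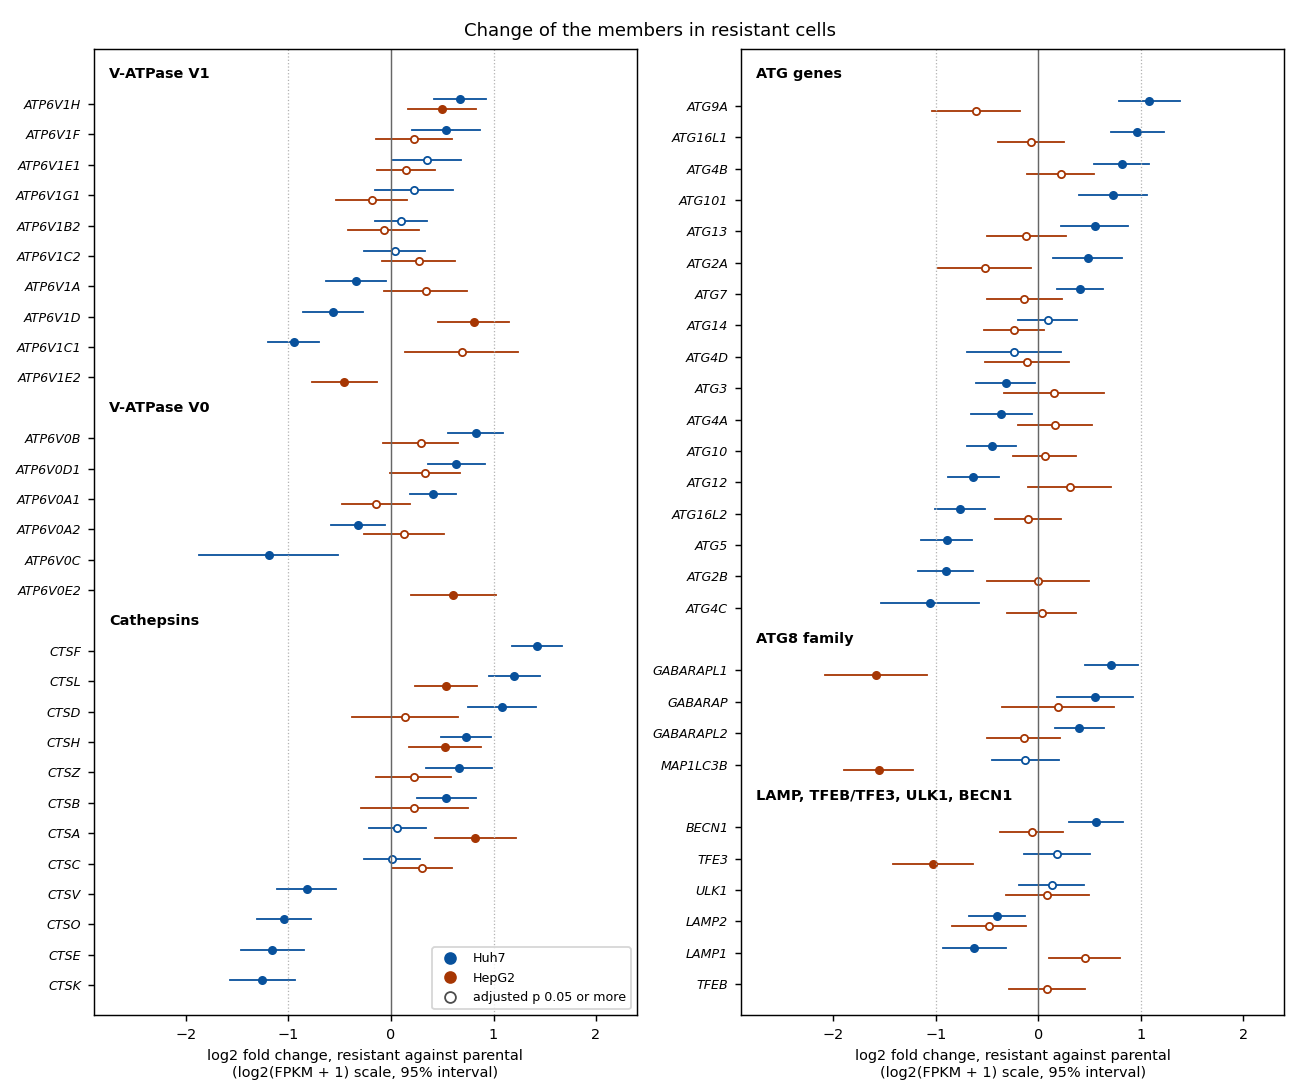
Log2 fold change of resistant against parental cells with its 95% interval from limma, in Huh7 (blue) and HepG2 (orange), for every member tested in a line; filled points have an adjusted p under 0.05 and dotted lines mark 2-fold. Most filled points are blue, and MAP1LC3B, GABARAPL1 and TFE3 are the filled orange points left of the dotted line.

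Of the ATG8 family, whose proteins are joined to lipid on the autophagosome, 2 of the 4 genes fell in HepG2 and 3 rose in Huh7. MAP1LC3B (chr16:87383995-87404779, plus strand), which encodes LC3B, the usual marker of autophagosomes, read 38.2, 39.1 and 39.6 FPKM in resistant and 99.2, 128 and 125 FPKM in parental HepG2. The groups are far apart, and the log2 fold change was -1.56 ± 0.15 (SE, adjusted p = 0.000551). In Huh7 MAP1LC3B read 54.7, 62.0 and 58.9 FPKM in resistant and 66.9, 74.6 and 52.1 FPKM in parental cells. These overlap, and the change of -0.12 did not pass (adjusted p = 0.455), although it passed as lower with the GC trend removed (-0.46, adjusted p = 0.0133). MAP1LC3B2, a near-identical copy that may share reads with MAP1LC3B, also fell in HepG2, by 0.86 (adjusted p = 0.0103), from 2.07, 2.30 and 1.83 FPKM to 0.969, 0.712 and 0.428 FPKM, and how reads were split between these copies is uncertain.

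GABARAPL1 (chr12:10212458-10223130, plus strand), a GABARAP-like ATG8 protein, moved in opposite directions in the lines. In HepG2 it read 0.997, 0.950 and 0.740 FPKM in resistant and 6.75, 4.42 and 3.31 FPKM in parental cells, and fell by 1.58 ± 0.22 (SE, adjusted p = 0.00256). Only the parental samples reached 1 FPKM, so leaving out any of them put the gene under the filter. In Huh7 it read 7.89, 9.81 and 9.58 FPKM in resistant and 5.37, 4.98 and 5.07 FPKM in parental cells, and rose by 0.71 ± 0.11 (SE, adjusted p = 0.000652). Neither pair of groups overlaps. The difference between the lines was 2.29 ± 0.25 (SE, adjusted p = 3.58e-05), the most of any member apart from ATP6V0C, whose change in HepG2 was not tested.

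GABARAPL2, which is known for trafficking within the Golgi as well as for autophagy, rose in Huh7 from 40.8, 38.9 and 35.7 FPKM to 51.5, 53.6 and 48.1 FPKM, by 0.40 ± 0.10 (SE, adjusted p = 0.00804), or by 0.78 with the GC trend removed. In HepG2 its samples overlapped, with 27.1, 27.9 and 26.5 FPKM in resistant and 29.6, 36.1 and 25.6 FPKM in parental cells (-0.14, adjusted p = 0.53). GABARAP rose in Huh7 by 0.55 ± 0.16 (SE, adjusted p = 0.014), from 5.93, 3.96 and 4.26 FPKM to 7.89, 6.06 and 8.08 FPKM. This call did not hold with the GC trend removed (0.26, adjusted p = 0.142), and 55.7% of its exonic bases are shared with other annotated genes, from which its reads cannot be told apart without strand. In HepG2 the change of GABARAP was 0.19 (adjusted p = 0.587), and resistant and parental samples overlapped.

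**Figure D4:**
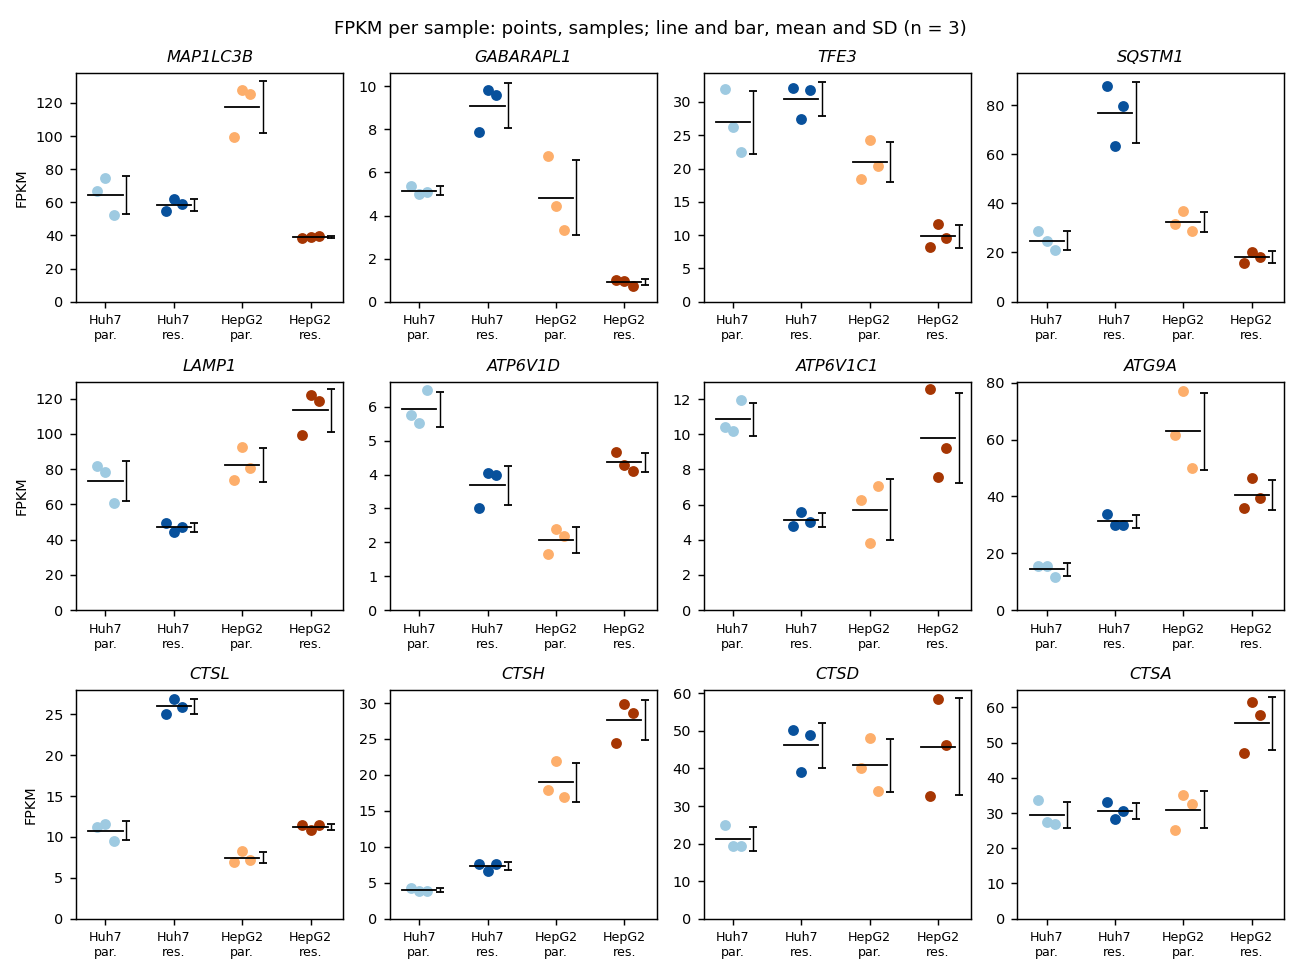
FPKM of 11 members and of the autophagy receptor SQSTM1 in each of the 12 samples, with the group mean as a line and the SD beside it (n = 3), on axes that start at 0. MAP1LC3B, GABARAPL1, TFE3 and SQSTM1 lie lower in resistant than in parental HepG2 without overlap, and GABARAPL1 and SQSTM1 lie higher in resistant than in parental Huh7.

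SQSTM1, which encodes p62, the receptor that binds ubiquitin on cargo and LC3 on the membrane, is not a member of the set. It had the same pair of directions as GABARAPL1. In Huh7 it rose from 28.6, 24.8 and 20.9 FPKM to 87.7, 63.4 and 79.6 FPKM (1.59 ± 0.16, SE, adjusted p = 7.69e-05, or 0.98 with the GC trend removed), and in HepG2 it fell from 31.5, 37.0 and 28.8 FPKM to 15.6, 20.4 and 18.2 FPKM (-0.81 ± 0.16, SE, adjusted p = 0.0101). In both lines the groups are apart.

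TFE3 (chrX:49028726-49043486, minus strand) read 8.19, 11.6 and 9.61 FPKM in resistant and 18.4, 24.3 and 20.4 FPKM in parental HepG2. All resistant samples lie below all parental samples, and TFE3 fell by 1.03 ± 0.17 (SE, adjusted p = 0.00557). In Huh7 it read 32.1, 27.4 and 31.8 FPKM in resistant and 32.01, 26.2 and 22.5 FPKM in parental cells, which overlap (0.18, adjusted p = 0.274), although it passed as lower with the GC trend removed (-0.43, adjusted p = 0.00176). The related factor TFEB was low throughout, with 1.32, 2.14 and 1.80 FPKM in resistant and 1.48, 1.46 and 1.79 FPKM in parental HepG2 (0.09, adjusted p = 0.73) and 0.285 to 0.401 FPKM in Huh7, under the filter. Of the 4 genes whose promoters are printed above, CTSA rose in HepG2, LAMP1 fell and ATP6V0D1 rose in Huh7, and ATP6V1G1 did not pass in either line. With the GC trend removed ATP6V0D1 no longer passed in Huh7. ATP6V1G1 then passed there as higher (0.60, adjusted p = 0.00711) and CTSA as lower (-0.54, adjusted p = 0.000485). LAMP1 then passed as higher in HepG2 (0.50, adjusted p = 0.0087). ATG3, whose core lies after the start, fell in Huh7, and passed as higher there with the trend removed (0.26, adjusted p = 0.0282).

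LAMP1 and LAMP2 encode the most abundant glycoproteins of the lysosomal membrane, and they did not move alike. LAMP1 read 49.3, 44.3 and 47.3 FPKM in resistant and 81.6, 78.4 and 60.5 FPKM in parental Huh7 and fell by 0.63 ± 0.13 (SE, adjusted p = 0.0031), or -1.01 with the GC trend removed. In HepG2 it read 99.3, 122 and 119 FPKM in resistant and 74.0, 92.8 and 80.7 FPKM in parental cells, without overlap, but the change of 0.45 did not pass (adjusted p = 0.0684). The difference between the lines was -1.08 ± 0.19 (SE, adjusted p = 0.000799).

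LAMP2 lay lower in resistant cells of both lines, with 31.3, 40.2 and 34.7 against 45.1, 46.2 and 49.2 FPKM in Huh7 and 46.7, 37.8 and 39.9 against 66.2, 49.6 and 59.1 FPKM in HepG2. The groups do not overlap in either line. The fall of 0.40 in Huh7 passed (adjusted p = 0.0146) but turned to a rise of 0.34 with the GC trend removed (adjusted p = 0.0161), and without resistant 1 or resistant 3 the adjusted p was 0.0564 and 0.0565. In HepG2 the change of -0.48 did not pass (adjusted p = 0.0659).

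BECN1, the scaffold of the lipid kinase complex that starts the autophagosome, rose in Huh7 from 2.62, 2.42 and 3.04 FPKM to 4.12, 4.32 and 4.89 FPKM, by 0.56 ± 0.12 (SE, adjusted p = 0.00256). In HepG2 the samples overlapped between 3.81 and 4.58 FPKM (-0.06, adjusted p = 0.76). ULK1, the kinase that starts autophagy, read 1.36 to 2.19 FPKM in resistant and 1.33 to 1.54 FPKM in parental Huh7, and 0.784 to 1.24 and 0.620 to 1.23 FPKM in HepG2. Its groups overlap in both lines, with changes of 0.13 (adjusted p = 0.414) and 0.09 (adjusted p = 0.745).

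Among the cathepsins 6 of the 12 tested rose and 4 fell in Huh7, 3 in each direction over 2-fold, and 3 of the 7 tested rose in HepG2. CTSL (chr9:87725519-87731393, plus strand), the endopeptidase cathepsin L, read 25.1, 26.9 and 25.9 FPKM in resistant and 11.2, 11.6 and 9.47 FPKM in parental Huh7, and 11.4, 10.8 and 11.5 against 6.99, 8.25 and 7.15 FPKM in HepG2. No resistant sample overlaps a parental sample of its line. The rise was 1.20 ± 0.11 (SE, adjusted p = 5.23e-05) in Huh7, or 0.75 with the GC trend removed, and 0.53 ± 0.13 (SE, adjusted p = 0.025) in HepG2. The rise in Huh7 was higher than that in HepG2 by 0.67 ± 0.14 (SE, adjusted p = 0.00211), a difference that did not pass with the GC trend removed (0.23, adjusted p = 0.116). Without HepG2 resistant 2, resistant 3, parental 1 or parental 3 the rise in HepG2 kept its direction with adjusted p-values of 0.0646, 0.137, 0.0781 and 0.0583.

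CTSH, an aminopeptidase, also rose in both lines. It read 7.57, 6.69 and 7.66 against 4.27, 3.89 and 3.82 FPKM in Huh7 (0.73 ± 0.11, SE, adjusted p = 0.000385) and 24.5, 29.8 and 28.6 against 17.9, 22.0 and 17.0 FPKM in HepG2 (0.53 ± 0.15, SE, adjusted p = 0.0444). The groups are apart in each line. In Huh7 the rise was 0.24 with the GC trend removed. In HepG2 CTSH no longer passed on omission of any of 4 samples, with adjusted p-values of 0.133 and 0.18 without resistant 2 and resistant 3, and 0.12 and 0.102 without parental 1 and parental 3.

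CTSA, a carboxypeptidase that also protects neuraminidase and beta-galactosidase, rose in HepG2 from 25.3, 35.3 and 32.5 FPKM to 46.9, 61.4 and 57.9 FPKM. The groups do not overlap, and the change was 0.82 ± 0.17 (SE, adjusted p = 0.0145), or 0.79 without resistant 3 (adjusted p = 0.0686). In Huh7 the samples lie between 26.9 and 33.6 FPKM in both groups (0.06, adjusted p = 0.655), and the difference between the lines was -0.76 ± 0.21 (SE, adjusted p = 0.00941). With the GC trend removed CTSA passed as lower in Huh7 (-0.54, adjusted p = 0.000485). Other annotated genes, NEURL2 and PLTP among them, share 28.5% of its exonic bases.

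CTSD, the aspartic protease cathepsin D, read 50.3, 39.2 and 48.9 FPKM in resistant and 25.0, 19.4 and 19.3 FPKM in parental Huh7, without overlap. It rose by 1.09 ± 0.14 (SE, adjusted p = 0.000265), or by 0.53 with the GC trend removed. In HepG2 resistant samples of 32.7, 58.5 and 46.3 FPKM spanned the parental 40.2, 48.0 and 34.1 FPKM (0.14, adjusted p = 0.687). Other annotated genes share 52.7% of its exonic bases. CTSF, a cysteine protease, had the rise with the highest fold of the set in Huh7, from 1.25, 0.984 and 1.05 FPKM to 4.71, 4.69 and 4.41 FPKM, by 1.42 ± 0.11 (SE, adjusted p = 2.51e-05), or by 0.81 with the GC trend removed. HepG2 samples had at most 0.0816 FPKM of CTSF.

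The cathepsins that fell over 2-fold in Huh7 were CTSK, CTSE and CTSO. CTSK, the collagen-degrading protease known from osteoclasts, read 0.894, 1.18 and 0.725 FPKM in resistant and 4.13, 3.02 and 3.67 FPKM in parental Huh7 and fell by 1.25 ± 0.14 (SE, adjusted p = 0.000118). CTSE, an aspartic protease of endosomes, read 2.47, 2.74 and 2.72 against 8.78, 6.42 and 6.33 FPKM and fell by 1.16 ± 0.14 (SE, adjusted p = 0.000153). Both pairs of groups are apart, and both falls stayed over 2-fold with the GC trend removed. CTSO read 0.375, 0.246 and 0.410 against 1.77, 2.01 and 1.53 FPKM and fell by 1.04 ± 0.11 (SE, adjusted p = 0.000117), and it passed the filter only through the parental samples. With the GC trend removed the change of CTSO was -0.49. CTSV, a close relative of CTSL, fell by 0.82 (adjusted p = 0.000538), with 1.26 to 1.92 FPKM in resistant and 3.38 to 3.83 FPKM in parental samples, or -0.37 with the GC trend removed. CTSB and CTSZ rose in Huh7 by 0.54 and 0.66 (adjusted p = 0.005 and 0.00303) and did not pass with the GC trend removed (0.07 and 0.05), and CTSC, which activates other proteases by trimming them, did not pass in either line.

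Of the V-ATPase 5 of the 14 tested subunits rose and 5 fell in Huh7, and 3 of 15 rose and 1 fell in HepG2, with medians of 0.16 and 0.27. ATP6V1H, the subunit that couples V1 to V0 and regulates ATP hydrolysis, rose in both lines. It read 6.07, 6.53 and 6.87 against 4.20, 3.46 and 3.44 FPKM in Huh7 (0.67 ± 0.11, SE, adjusted p = 0.000835) and 9.62, 10.7 and 10.2 against 6.06, 8.04 and 6.72 FPKM in HepG2 (0.50 ± 0.14, SE, adjusted p = 0.0446). The groups are apart in both lines, but in HepG2 the adjusted p was 0.0582 to 0.174 without resistant 1, resistant 2, resistant 3, parental 1 or parental 3. ATP6V1H, CTSH and CTSL were the only members that rose in both lines among the 44 tested in both. In HepG2 each of them lost the call with median-ratio scaling. ATP6V1H and CTSH also lost it there with upper-quartile scaling and with no filter. The share of all genes that rose in both lines is not given here.

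ATP6V1D (chr14:67294371-67360265, minus strand), part of the central rotor shaft, went opposite ways. In Huh7 it read 3.03, 4.05 and 3.98 FPKM in resistant and 5.74, 5.53 and 6.49 FPKM in parental cells and fell by 0.57 ± 0.13 (SE, adjusted p = 0.0039). In HepG2 it read 4.67, 4.28 and 4.11 against 1.65, 2.39 and 2.18 FPKM and rose by 0.81 ± 0.15 (SE, adjusted p = 0.00891). Neither pair overlaps, and the difference between the lines was -1.37 ± 0.18 (SE, adjusted p = 0.000108). ATP6V1C1, a stator subunit whose binding governs assembly of the 2 sectors, had 4.77, 5.59 and 5.02 against 10.4, 10.2 and 11.9 FPKM in Huh7, where it fell by 0.95 ± 0.11 (SE, adjusted p = 0.000144), or by 0.36 with the GC trend removed. In HepG2 its 12.5, 7.54 and 9.23 FPKM in resistant cells lay above the 6.27, 3.80 and 7.08 FPKM of parental cells, but the change of 0.69 did not pass (adjusted p = 0.0778). The difference between the lines did (-1.64 ± 0.28, SE, adjusted p = 0.000631).

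ATP6V1A, the catalytic subunit, read 29.4, 40.5 and 33.9 against 44.4, 42.8 and 44.2 FPKM in Huh7 and fell by 0.34 (adjusted p = 0.0392), which turned to 0.17 with the GC trend removed (adjusted p = 0.153). Without any of the Huh7 samples but resistant 2 the call was lost, with adjusted p-values of 0.0751 to 0.138. In HepG2 it did not pass (0.34, adjusted p = 0.203). The other catalytic-ring subunit, ATP6V1B2, read 23.0 to 29.8 FPKM in Huh7 and 19.7 to 27.1 FPKM in HepG2 and passed in neither line, with changes of 0.09 and -0.07. ATP6V1F rose in Huh7 by 0.54 (adjusted p = 0.0104), or by 0.01 with the GC trend removed. ATP6V1E2, a form known from testis, fell in HepG2 from 1.27, 1.42 and 1.49 FPKM to 0.749, 0.808 and 0.682 FPKM, by 0.45 (adjusted p = 0.0498), and it passed the filter only through the parental samples. Without any of the resistant samples the adjusted p of ATP6V1E2 was 0.0921 to 0.208.

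In the V0 sector ATP6V0B, a proteolipid of the rotor ring, rose in Huh7 from 3.04, 2.69 and 2.77 FPKM to 5.92, 5.05 and 6.50 FPKM, by 0.83 ± 0.12 (SE, adjusted p = 0.00037), or by 0.24 with the GC trend removed. ATP6V0D1, which joins the rotor to the ring, rose by 0.64 (adjusted p = 0.00165), from 2.00 to 2.53 FPKM up to 3.64 to 4.52 FPKM, and had a change of 0.03 once the GC trend was removed. ATP6V0A1 and ATP6V0A2 are forms of the subunit through which protons pass. ATP6V0A1 rose by 0.41 (adjusted p = 0.00572) and turned to -0.10 with the GC trend removed. ATP6V0A2 fell by 0.32 (adjusted p = 0.035), had -0.08 with the trend removed, and lost the call without resistant 1, resistant 3, parental 1 or parental 2 (adjusted p = 0.0814 to 0.127). In HepG2 ATP6V0E2 rose from 0.365, 0.830 and 0.591 FPKM to 1.03, 1.51 and 1.78 FPKM, by 0.61 ± 0.18 (SE, adjusted p = 0.049). It passed the filter only through the resistant samples, and the adjusted p was 0.139 and 0.0886 without parental 1 and parental 3.

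ATP6V0C (chr16:2513870-2520218, plus strand), the main proteolipid of the ring, varied widely within groups. In Huh7 it read 0.281, 0.381 and 1.26 FPKM in resistant and 4.46, 2.30 and 1.65 FPKM in parental cells, without overlap, and fell by 1.19 ± 0.29 (SE, adjusted p = 0.00647). In HepG2 it read 0.473, 4.24 and 4.42 FPKM in resistant and 0.153, 0.0543 and 0.467 FPKM in parental cells. Behind these HepG2 values are 12, 116 and 114 reads and 3, 1 and 11 reads, so resistant 1 lies with the parental samples and the gene stayed under the filter in HepG2. Other annotated genes share 72.1% of its exonic bases, and which of them the reads came from was not tested.

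Of the ATG genes 7 of the 17 tested rose and 8 fell in Huh7, and none of the 15 tested passed in HepG2. At an unadjusted p under 0.05 there were 2 in HepG2, ATG2A and ATG9A, and limma-voom called 1, ATG9A. ATG9A (chr2:219219380-219229717, minus strand), the lipid scramblase whose vesicles seed the autophagosome, read 33.9, 30.0 and 30.0 FPKM in resistant and 15.6, 15.6 and 11.8 FPKM in parental Huh7 and rose by 1.08 ± 0.13 (SE, adjusted p = 0.000167), or by 0.47 with the GC trend removed. In HepG2 it read 36.0, 46.4 and 39.5 against 61.6, 77.1 and 49.9 FPKM. These groups are apart in the other direction, although the change of -0.60 did not pass (adjusted p = 0.0541). The difference between the lines was 1.69 ± 0.23 (SE, adjusted p = 0.000151). Another annotated gene shares 38.8% of its exonic bases.

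The system that joins ATG12 to ATG5 and recruits ATG16L1 to the membrane did not move as a unit in Huh7. ATG16L1, which sets where LC3 is joined to lipid, rose from 7.40, 5.83 and 6.23 FPKM to 14.1, 12.8 and 13.9 FPKM, by 0.97 ± 0.11 (SE, adjusted p = 0.00015). ATG12, the ubiquitin-like partner, fell from 3.69, 3.91 and 4.47 FPKM to 2.20, 2.36 and 2.14 FPKM, by 0.63 ± 0.11 (SE, adjusted p = 0.00097), and stood at 0.12 with the GC trend removed. ATG5 fell from 1.06, 1.40 and 1.28 FPKM to 0.233, 0.238 and 0.149 FPKM, by 0.89 ± 0.11 (SE, adjusted p = 0.000168), or -0.23 with the GC trend removed (adjusted p = 0.0826). It passed the filter only through the parental samples, 9 genes of the NONCODE catalogue overlap it, and the highest of them has a mean of 4.01 FPKM. ATG10, the E2-like enzyme of this system, fell by 0.46 (adjusted p = 0.004) and ATG16L2, a paralogue of ATG16L1, by 0.76 (adjusted p = 0.000355), the latter at -1.37 with the GC trend removed. ATG7, the E1-like enzyme shared by both conjugation systems, rose by 0.41 (adjusted p = 0.00568), while ATG3, the E2-like enzyme of LC3, fell by 0.32 (adjusted p = 0.0478). With the GC trend removed ATG10 and ATG7 no longer passed (-0.18 and 0.05), and ATG3 passed as a rise of 0.26. ATG3 lost its call without any of the Huh7 samples but resistant 2 (adjusted p = 0.0593 to 0.168).

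Of the ATG4 proteases, which cut ATG8 proteins before and after lipid joining, ATG4B rose and ATG4C and ATG4A fell in Huh7. ATG4C read 2.39, 2.48 and 1.79 against 3.73, 6.59 and 7.20 FPKM and fell by 1.05 ± 0.21 (SE, adjusted p = 0.0021), or -0.16 with the GC trend removed (adjusted p = 0.278). ATG4B read 12.6, 10.2 and 12.03 against 6.68, 5.86 and 5.94 FPKM and rose by 0.81 ± 0.12 (SE, adjusted p = 0.000373), or by 0.21 with the trend removed. ATG4A fell by 0.36 (adjusted p = 0.036), had -0.02 with the trend removed and lost its call without resistant 1, resistant 3, parental 2 or parental 3 (adjusted p = 0.0693 to 0.134), and ATG4D did not pass (-0.24). The paralogous lipid transfer proteins ATG2A and ATG2B changed in opposite directions: ATG2A rose by 0.48 (adjusted p = 0.0172) and turned to -0.07 with the trend removed, and ATG2B fell by 0.90 ± 0.12 (SE, adjusted p = 0.000244), with 1.95 to 2.52 FPKM in resistant and 4.47 to 5.28 FPKM in parental samples. Without resistant 1, resistant 3 or parental 2 the adjusted p of ATG2A was 0.0528, 0.0653 and 0.0605. ATG13 and ATG101, partners of ULK1, rose by 0.55 and 0.73 (adjusted p = 0.00827 and 0.00222), and neither passed with the GC trend removed (0.09 and 0.12). ATG101 passed the filter in Huh7 only through the resistant samples. ATG14, which directs the BECN1 complex to autophagy, did not pass in either line.

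The changes of 35 of the 56 members tested over all 12 samples differed between the lines, beside 56.3% of all 13800 genes so tested. Of the 35, ATG5 and CTSO passed the filter only through parental Huh7, and ATP6V1E2 only through parental HepG2. These genes had to differ and add nothing to the comparison with the background. CTSE and CTSF passed the filter only through Huh7, with at most 0.542 and 0.0816 FPKM in HepG2, and add nothing to it either. With limma-voom the difference of CTSF did not pass (1.64, adjusted p = 0.0864). That of CTSE turned from -0.83 to 0.37 with limma-voom (adjusted p = 0.59), and did not pass with a pseudocount of 0.1 (-0.16). Among the 44 members tested in each line, 18 of those that differed also had changes of opposite sign. They were 9 ATG genes, GABARAPL1, GABARAPL2, 4 subunits of the V-ATPase, BECN1, LAMP1 and TFE3, and of them GABARAPL1 and ATP6V1D passed within both lines. No share over all genes is given here for opposite signs or for changes common to both lines. Such counts are therefore not to be read as particular to the members. No member fell in both lines at an adjusted p under 0.05; LAMP2 did at an unadjusted p under 0.05 and with limma-voom, and 3 others, ATG4D, MAP1LC3B and TFE3, did with the GC trend removed. The median of the difference over all genes was -0.155 and moved to -0.0257 with median-ratio scaling, which left 37 members past the threshold. With the GC trend removed 23 of the 35 kept their call and direction and 12 kept the direction only. Among the 18 with opposite signs 10 kept their call. The signs of the 2 lines were then still opposite for 8 of these, whereas TFE3 (-0.43 in Huh7 and -1.08 in HepG2) and ATG2A (-0.07 and -0.69) were lower in both.

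Parental Huh7 and parental HepG2 differed over 2-fold in 14 members, fitted over all 12 samples. In parental Huh7 10 of the 56 tested were higher and 4 were lower, beside 18.3% and 11.9% of all genes. CTSZ, a carboxypeptidase, differed the most, with 21.7, 17.1 and 14.9 FPKM in Huh7 and 1.23, 1.52 and 1.15 FPKM in HepG2, a log2 difference of 3.03 ± 0.14 (SE, adjusted p = 6.59e-09). CTSE (2.56), ATP6V0C (1.58), CTSV (1.51), CTSO (1.44), CTSK (1.23), ATP6V1D (1.18), CTSF (1.03), ATG3 (1.02) and ATG4A (1.02) were also higher in Huh7 on the log2 scale. ATG9A (-2.05), CTSH (-1.99), CTSB (-1.14) and ATG13 (-1.02) were lower. Of the 14, 8 are cathepsins, and CTSE, CTSF and CTSO were at most 0.542 FPKM in HepG2. These last genes passed the filter only through Huh7, the line in which they were high, and CTSO only through its parental samples. CTSE, CTSF and CTSO therefore add nothing to the comparison with the background. The median difference of all genes was 0.175 and moved to 0.0611 with median-ratio scaling, under which 7 members were higher and 7 lower over 2-fold in Huh7.

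The rest of the pathway was followed through lists of lysosomal and autophagy genes. Of 35 tested lysosomal hydrolases 16 rose and 5 fell in Huh7, with a median of 0.18, and 3 rose and 3 fell in HepG2, with a median of 0.23. GALC, which cleaves galactosylceramide, fell in Huh7 by 2.14, from 13.3, 16.6 and 12.8 FPKM to 2.14, 3.07 and 2.19 FPKM. AGA, which cleaves the sugar link of asparagine, fell in both lines, by 1.30 and 1.14, and GM2A, the activator of ganglioside breakdown, rose in both, by 0.70 in Huh7 and 0.91 in HepG2. A list of 11 tested genes held assembly and accessory factors of the V-ATPase and TCIRG1, a V0 subunit whose symbol the rule does not match. Of these 3 rose and 5 fell in Huh7 and 0 rose and 1 fell in HepG2. DMXL2 and DMXL1, the rabconnectins that help reassemble the pump, fell in Huh7 by 1.55 and 1.31. NCOA7 fell in both lines, by 1.21 in Huh7 and 0.72 in HepG2. Only 2 cathepsin inhibitors were tested in Huh7, where CST3 (cystatin C) rose by 0.88 and KNG1 fell by 0.46 (-0.08 and not past the threshold with the GC trend removed), and 3 in HepG2, where CSTA fell by 1.25.

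Of the lysosomal membrane and sorting genes 5 of 19 rose and 8 fell in Huh7, and 5 of 18 rose and 2 fell in HepG2. LAPTM4B and the tetraspanin CD63 rose by 1.71 and 1.34 in Huh7, and GNPTG and GNPTAB, subunits of the enzyme that adds the mannose 6-phosphate mark, rose by 0.79 and 0.78 in HepG2. GNPTAB fell in Huh7 by 0.74 (adjusted p = 0.000663), and its change differed between the lines by -1.53 (adjusted p = 0.000342). Of 31 autophagy genes outside the set 11 rose and 9 fell in Huh7, SQSTM1 and AMBRA1 (1.17) leading, and 2 rose and 6 fell in HepG2, where the receptor OPTN fell by 1.28 and the phosphoinositide-binding WIPI1 by 1.12. OPTN also fell in Huh7, by 0.68. Of the genes that control mTORC1 and TFEB at the lysosome 5 of 22 rose and 9 fell in Huh7, and 0 of 20 rose and 1 fell in HepG2. FNIP2, a partner of folliculin, and PRKAA2, a catalytic subunit of AMPK, fell in Huh7 by 1.83 and 1.29, and PRKAA2 fell in HepG2 by 0.74. These lists are described by their counts, beside the background shares given above, and no test of a list was made.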

How the data were processed

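RNA of 12 samples was sequenced in 4 groups of 3. The authors deposited decimal values per gene, taken as FPKM from their behaviour since no unit is stated; the submitters' processing notes name bcl2fastq and GRCh38, while aligner, quantifier and annotation release are not given in the sources used here. The labels name a kit that is not stated to keep strand. Symbols and positions are those deposited with the values. Exon lengths, GC content, gene types and overlaps with other annotated genes came from GENCODE 29, in which all 65 members were found. The positions of ATP6V0E2 and ATP6V1C2 differ there from the deposited ones. The members and gene lists were chosen with earlier results of these data known.

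A gene entered a fit when 3 or more of its samples reached 1 FPKM, and was tested on log2(FPKM + 1) with limma 3.58.1 in R 4.3.3 (moderated test with a trend, two-sided, Benjamini-Hochberg over all tested Ensembl genes), with 6 samples for each line and 12 for the difference between lines and for parental cells. Reads were calculated back from the value steps of single-exon genes; at least 99.05% came out whole within 0.05 reads, for values up to 2000 reads. These totals stand in for the depth, and are estimates. Genes named were members past both thresholds, the 2 most changed of each role in each line, the highest and lowest of each role, and members that differed between lines with opposite signs, and others were named after their values were seen. Alternatives changed the filter, the pseudocount (0.1), the scaling, the test (limma-voom, no trend), the samples, a replicate block and the GC trend (lowess span 0.3). Promoters came from RefSeq. Python 3.11.15, numpy 2.4.6, pandas 2.3.3 and matplotlib 3.10.9 were used, and the fits were tested on simulated data.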

Additional observations from a re-analysis of the deposited data

Results flagged for a closer look

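The values in parentheses are the change in Huh7 minus the change in HepG2 on the log2(FPKM + 1) scale, with the adjusted p of limma's interaction of line and resistance over 12 samples. These 18 genes are listed because that difference passed and the changes had opposite signs. The difference alone passed for 56.3% of all genes so tested. Only GABARAPL1, which passed the HepG2 filter through its parental samples alone, and ATP6V1D passed within both lines. For the others at least 1 of the 2 signs belongs to a change that did not pass, such as that of ATG4C in HepG2, which was 0.03. The share of all genes with this pattern is not given here. Among the autophagosome genes the change was more positive in Huh7 for GABARAPL1 (2.29, adjusted p = 3.58e-05), GABARAPL2 (0.544, adjusted p = 0.017), ATG9A (1.69, adjusted p = 0.000151), ATG16L1 (1.04, adjusted p = 0.000304), ATG2A (1.01, adjusted p = 0.00623), ATG13 (0.666, adjusted p = 0.0236), ATG7 (0.545, adjusted p = 0.0163) and BECN1 (0.623, adjusted p = 0.0039). It was more negative in Huh7 for ATG4C (-1.08, adjusted p = 0.00502), ATG12 (-0.942, adjusted p = 0.00179), ATG4A (-0.524, adjusted p = 0.0357) and ATG10 (-0.518, adjusted p = 0.00375). Of the proton pump, ATP6V0A1 lay on the positive side (0.555, adjusted p = 0.00778). The negative side held ATP6V1C1 (-1.64, adjusted p = 0.000631), ATP6V1D (-1.37, adjusted p = 0.000108) and ATP6V1A (-0.681, adjusted p = 0.0194). The membrane protein LAMP1 (-1.08, adjusted p = 0.000799) and the transcription factor TFE3 (1.21, adjusted p = 0.000912) differed in opposite directions. With the GC trend removed, the difference still passed for 10 of the 18, GABARAPL1, GABARAPL2, ATG9A, ATG16L1, ATG2A, BECN1, TFE3, LAMP1, ATP6V1C1 and ATP6V1D. For 8 of these the signs were then still opposite, while TFE3 (-0.43 in Huh7 and -1.08 in HepG2) and ATG2A (-0.07 and -0.69) were lower in both lines.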

How the results depend on the processing

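With the GC trend of each library removed, the Huh7 changes of LAMP2 (0.34), ATG3 (0.257), ATP6V1A (0.174), ATG12 (0.12), ATP6V0A1 (-0.103) and ATG2A (-0.0684) turned sign, no member rose over 2-fold in Huh7 (0, from 4), 8 fell in HepG2 (from 4), and 2 were lower over 2-fold in parental Huh7 (from 4), also 2 against the mean of all 12 samples, an alternative chosen after seeing the data. A pseudocount of 0.1 and limma-voom each gave 7 rises and 10 falls over 2-fold in Huh7 (from 4 and 5) and 7 lower in parental Huh7, as did median-ratio scaling for the last (7). Rises over 2-fold in HepG2 were 1 with the pseudocount of 0.1, 2 with limma-voom and 1 (ATP6V0C) with all 12 samples in one fit, from 0. Rises in HepG2 fell from 6 to 3 with no filter, 3 with upper-quartile and 2 with median-ratio scaling. The cause was not tested in these cases.

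Leaving out a sample gave 3 to 5 rises and 3 to 5 falls over 2-fold in Huh7, 20 to 23 rises and 13 to 19 falls in all; 1 to 6 rises, 0 over 2-fold, and 2 to 3 falls in HepG2, 1 to 3 over 2-fold (1, MAP1LC3B, without parental 2); 30 to 36 differences between lines; and 8 to 12 higher and 3 to 5 lower in parental Huh7. Samples with the same replicate number did not deviate together in every pair (correlations 0.0843, 0.062 and -0.228 in Huh7, 0.246, 0.437 and -0.011 in HepG2). In HepG2, however, replicates 1 and 2 each correlated most with the sample of their own number, in both directions. Whether such samples share more than a number was not tested. With the replicate block 22 rose and 16 fell in Huh7, 8 rose and 5 fell in HepG2, and 35 differed between the lines. Of all tested genes 17.9% rose and 11.1% fell in HepG2 with that block, against 11.6% and 8.43% without it. Calculated depth limits the low genes: ATP6V0C rests on 1 to 120 reads a sample, and genes under the filter in a line were not tested there.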
